A study of Mus musculus with 2 samples.

Results

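Complement is a set of blood and tissue proteins that mark and destroy targets through a cascade of proteases. The recognition molecule of its classical pathway, C1q, is built from 3 chains encoded by C1qa, C1qb and C1qc, and carries the proteases C1r (C1ra) and C1s (C1s1). C1s cleaves C4 (C4b) to start the convertase that splits C3, factor B (Cfb) supplies the protease of the alternative pathway, and the C1 inhibitor (Serping1) blocks C1r and C1s. Much of the complement in blood is made in liver, and C1q is known as a product of tissue macrophages.

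These 9 genes were followed through dissociated mouse skin, chosen by symbol from the 31053 genes of the count tables, and all 9 were found. The mice were C57Bl6 animals of 8 weeks, of both sexes, and were injected into the dermis with 100 µl of PBS, which carried 100 ng of sitagliptin in the treated group and no drug in the control group. Sitagliptin inhibits the protease DPP4, and the labels' 48 h is read here as the time from injection to processing of the skin. There was 1 10x Genomics Chromium library per treatment, the number of animals behind each was not stated, and no group had a replicate. A difference between the libraries therefore has no replicate check. All intervals are at 95% and reflect counting error alone.

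In the PBS-labelled library there were 10456 barcodes with 70729930 UMIs (unique molecular identifiers, each standing for 1 captured RNA molecule). In the sitagliptin-labelled library there were 22085 barcodes with 95047000 UMIs. Barcodes were kept from 500 genes and 1000 UMIs upward, if mitochondrial UMIs made up no more than 10%, which left 5932 cells (median 6902.5 UMIs) and 18380 cells (median 2197 UMIs). The deposited file names of either library carry a letter that begins the name of the opposite treatment, and whether the labels were exchanged cannot be told from the sources used here. The libraries shared 75 barcodes, 41 of them among kept cells. Cells were clustered without the 9 genes and named from markers that included none of them, so a name such as macrophage-like rests on other genes. Clusters in which markers of no other class stood out were called keratinocyte-like, with no minimum set for keratinocyte markers. The PBS-labelled library gave 926 macrophage-like, 436 fibroblast-like, 81 endothelial-like and 3884 keratinocyte-like cells, and the other gave 18, 5, 16 and 17857. All 14 macrophage markers were detected in macrophage-like cells and all 10 fibroblast markers in fibroblast-like cells, in both libraries. Keratinocyte markers were counted in all 4 classes, at a summed 11925 CPM (UMIs of a gene per 1000000 UMIs) in macrophage-like and 57867 CPM in keratinocyte-like cells of the PBS-labelled library. The part of RNA from other cells in the levels below was not tested.

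The genes lie in groups in the genome (mm10, GENCODE gene models). C1qb (chr4:136880129-136886187), C1qc (chr4:136889804-136893065) and C1qa (chr4:136895917-136898803) follow each other on the minus strand, with 3616 and 2851 bases between them. C1ra (chr6:124512405-124523443, plus strand) and C1s1 (chr6:124530345-124542359, minus strand) stand 6901 bases apart. C4b (chr17:34728380-34743882) and Cfb (chr17:34856374-34862518) share a minus-strand region, C3 lies at chr17:57203970-57228136 and Serping1 at chr2:84765387-84775444, both on the minus strand. Reads of some of these genes may also match another gene, so their counts are uncertain. In the last 500 bases of the transcripts, the shares of 31-base words also found in another gene were 38.0% for C4b (with C4a), 76.5% for Cfb (with Gm20547), 25.3% for C1ra (mainly C1rb) and 37.6% for C1s1 (with C1s2). The other 5 genes shared none. C4a was not found by symbol in the count tables.

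Promoter windows from RefSeq (GRCm38.p6, 250 bases before to 50 bases after the gene start) were matched for 5 of the 9 genes, namely C1qb, C1qc, C3, C1ra and C1s1. C1qa, C4b, Cfb and Serping1 had no match. The windows below are from 2 genes whose RNA was highest in macrophage-like cells (C1qb, chr4:136886151-136886450, and C1qc, chr4:136892865-136893164) and 2 whose RNA was highest in fibroblast-like cells (C3, chr17:57228087-57228386, and C1s1, chr6:124542310-124542609, the first of its 2 listed start sites). They are shown 5′ to 3′ on the gene's strand, here minus for all 4, with matches to GAGGAA (the core bound by PU.1, a macrophage transcription factor) or TTGCNNAA (a pattern bound by C/EBP factors) on either strand in capitals.
C1qb: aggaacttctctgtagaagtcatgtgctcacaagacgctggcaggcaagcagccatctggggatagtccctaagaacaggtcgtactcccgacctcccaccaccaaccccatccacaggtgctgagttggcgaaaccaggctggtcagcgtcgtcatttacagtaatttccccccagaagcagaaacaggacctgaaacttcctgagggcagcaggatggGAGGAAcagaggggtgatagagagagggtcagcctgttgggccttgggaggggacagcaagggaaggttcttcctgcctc
C1qc: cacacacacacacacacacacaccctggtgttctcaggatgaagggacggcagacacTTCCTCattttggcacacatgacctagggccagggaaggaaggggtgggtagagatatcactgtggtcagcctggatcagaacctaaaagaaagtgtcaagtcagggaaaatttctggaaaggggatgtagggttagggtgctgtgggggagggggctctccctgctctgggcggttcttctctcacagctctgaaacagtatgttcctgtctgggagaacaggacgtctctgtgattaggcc
C3: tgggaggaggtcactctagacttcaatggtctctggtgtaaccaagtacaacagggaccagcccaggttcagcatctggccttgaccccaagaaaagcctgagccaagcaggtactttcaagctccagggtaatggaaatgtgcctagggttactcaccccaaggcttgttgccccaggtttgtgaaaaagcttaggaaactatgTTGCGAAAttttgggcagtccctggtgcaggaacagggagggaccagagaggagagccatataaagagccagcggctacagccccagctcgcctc
C1s1: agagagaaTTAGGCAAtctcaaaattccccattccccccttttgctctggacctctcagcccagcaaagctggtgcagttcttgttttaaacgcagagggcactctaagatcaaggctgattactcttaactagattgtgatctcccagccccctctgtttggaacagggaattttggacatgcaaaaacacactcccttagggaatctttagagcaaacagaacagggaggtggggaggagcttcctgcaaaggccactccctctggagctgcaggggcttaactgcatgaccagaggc
GAGGAA occurred once in the C1qb window, 30 bases before the start, and once in the C1qc window, on the other strand. It was absent from the C3 and C1s1 windows and present in 28.3% of all 32851 promoter windows of the same length. TTGCNNAA occurred once in the C3 window, 45 bases before the start, and once in the C1s1 window shown, on the other strand, against 10.8% of all windows. The window of the other C1s1 start site held 0 matches to either motif. C1ra held 1 match to each motif. An interferon response pattern (GAAA, any 2 bases, GAAA), found in 3.44% of all windows, was in none of the windows of these 5 genes. A match describes letters in the window and is not a binding site.

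Complement RNA in the PBS-labelled library fell into a macrophage set and a fibroblast set. C1qa, C1qb, C1qc and Cfb had their highest level in macrophage-like cells, and C3, C4b, C1ra, C1s1 and Serping1 in fibroblast-like cells. Levels are UMIs of a gene summed over all cells of a class, scaled to CPM by all UMIs of that class. Against keratinocyte-like cells, 8 of the 9 genes were at least 2-fold higher in macrophage-like cells, where 19.3% of 13745 genes with at least 20 UMIs were. All 9 were in fibroblast-like cells (22.1% of 13719 genes), and 6 of 8 in endothelial-like cells (22.1% of 13349 genes). The 6 included C1s1 on 2 UMIs, with a ratio of 5.18 (0.611 to 19.7), and the C1q chains on 24 to 41 UMIs. Cfb had 7 UMIs in keratinocyte-like cells. It met the minimum of 20 UMIs only through macrophage-like (101 UMIs) or fibroblast-like cells (51 UMIs), so its calls there are not read as support. In fibroblast-like cells the C1q chains were 3.24- to 4.30-fold higher. These low C1q levels moved with the settings, as given below. The map of levels by class shows the same split.

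**Figure D1:**
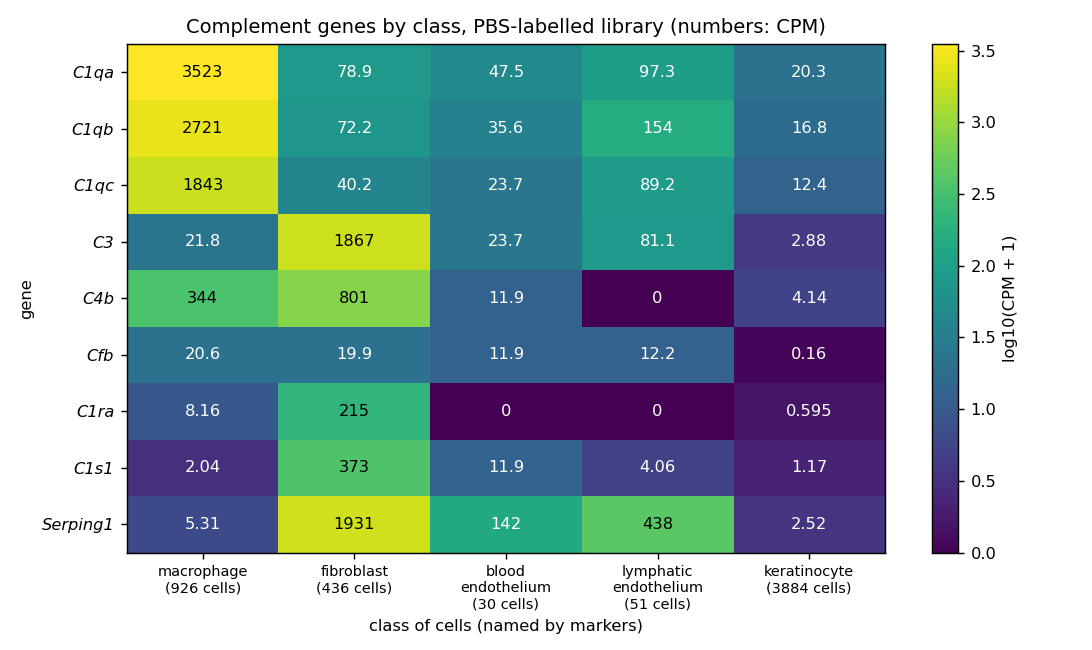
Level of each complement gene (rows) in 5 classes of cells (columns) of the PBS-labelled library, as CPM of summed UMIs, coloured by log10(CPM + 1). The C1q chains peak in macrophage-like cells (C1qa 3523 CPM), whereas C3 and Serping1 peak in fibroblast-like cells (1867 and 1931 CPM) and keratinocyte-like cells are low throughout.

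The C1q chains were genes of macrophage-like cells. C1qa stood at 3523 CPM (3471 to 3576) in macrophage-like cells, 78.9 CPM in fibroblast-like, 84.6 CPM in endothelial-like and 20.3 CPM in keratinocyte-like cells. C1qb stood at 2721, 72.2, 124 and 16.8 CPM in the same classes. C1qc stood at 1843, 40.2, 72.6 and 12.4 CPM. The low levels outside macrophage-like cells moved with the settings. Over these, endothelial-like C1qa ran from 21.2 to 208 CPM and C1qb from 23.6 to 222 CPM, and without the highest doublet scores fibroblast-like C1qa was 30.9 CPM and C1qb 33.9 CPM. The macrophage-like level was 173-fold (162 to 186) above the keratinocyte-like one for C1qa, 162-fold for C1qb and 149-fold for C1qc. Macrophage-like cells, 926 of 5932, held 90.3% of all C1qa UMIs, 90.1% of C1qb and 90.1% of C1qc. C1qa was detected in 76.9% of macrophage-like cells (median 4216 UMIs) and in 17.9% of keratinocyte-like cells (median 8508.5 UMIs). With each cell thinned to 1000 UMIs, these shares became 69.3% and 2.73%.

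The low C1q levels of the other classes came with other macrophage RNAs. In fibroblast-like cells none of the 14 macrophage markers was at 0 and their summed level was 407 CPM, against 13966 CPM in macrophage-like cells. The median over the 14 was 17.2 CPM and 626 CPM. Such a sum can rest on few markers and is not a measure of macrophage RNA. In keratinocyte-like cells it was 302 CPM with a median of 4.60 CPM. In lymphatic endothelium-like cells the sum was 815 CPM (median 36.5 CPM), with none at 0, and C1qb was 154 CPM. In blood endothelium-like cells the sum was 154 CPM (median 0 CPM) with 8 of the 14 markers at 0, and C1qb was 35.6 CPM. The chains' shares of the C1q UMIs were compared as well. C1qa, C1qb and C1qc made up 43.6%, 33.6% and 22.8% in macrophage-like cells, 41.2%, 37.8% and 21.0% in fibroblast-like cells, and 41.1%, 33.9% and 25.0% in keratinocyte-like cells. In endothelial-like cells they differed, at 30.1% (21.0% to 40.5%), 44.1% and 25.8% of 93 UMIs. Lyz2, a lysozyme gene of macrophages, made up 37.4% of the C1q and Lyz2 UMIs together in macrophage-like, 34.8% in fibroblast-like and 27.8% in keratinocyte-like cells. In endothelial-like cells this share was 41.5% (33.8% to 49.6%). Pf4, another macrophage marker, had a lower share in macrophage-like cells than in the others. It made up 15.2% of the C1q and Pf4 UMIs there, 22.8% in fibroblast-like, 19.2% in keratinocyte-like and 21.8% in endothelial-like cells. The part of macrophage RNA in the C1q counts of these classes was not tested.

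C4b was a gene of both sets. It stood at 801 CPM (767 to 837) in fibroblast-like and 344 CPM (328 to 361) in macrophage-like cells, a 2.33-fold difference (2.18 to 2.49), and at 3.02 CPM in endothelial-like and 4.14 CPM in keratinocyte-like cells. Fibroblast-like cells held 50.4% of its UMIs and macrophage-like cells 41.4%. In macrophage-like cells C4b made up 90.2% of the UMIs of C3, C4b, C1ra, C1s1 and Serping1 together, against 15.4% in fibroblast-like cells. The macrophage-like cells carried C4b with low levels of other genes of the fibroblast set, among them C1s1 at 2.04 CPM and Serping1 at 5.31 CPM.

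C3 and Serping1 were genes of fibroblast-like cells. C3, the protein on which all complement pathways converge, stood at 1867 CPM (1814 to 1920) in fibroblast-like, 66.5 CPM in endothelial-like, 21.8 CPM in macrophage-like and 2.88 CPM in keratinocyte-like cells. Fibroblast-like cells, 436 of 5932, held 91.9% of its UMIs. Serping1 stood at 1931 CPM (1878 to 1986), 363 CPM, 5.31 CPM and 2.52 CPM in the same order. It was detected in 98.4% of fibroblast-like cells (median 5458 UMIs) and 2.55% of keratinocyte-like cells, and after thinning in 79.4% and 0.386%.

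Genes for both C1 proteases shared their highest class with the inhibitor rather than with C1q. They did not follow it in endothelial-like cells, where Serping1 was 363 CPM. C1s1 was 373 CPM (350 to 397) in fibroblast-like cells, 6.05 CPM in endothelial-like, 2.04 CPM in macrophage-like and 1.17 CPM in keratinocyte-like cells. C1ra was 215 CPM (198 to 234) in fibroblast-like, 8.16 CPM in macrophage-like and 0.595 CPM in keratinocyte-like cells. It had 0 UMIs in the 81 endothelial-like cells, which allows up to 9.07 CPM. The ratio of fibroblast-like to macrophage-like levels was 183 (98.9 to 382) for C1s1, 364 (248 to 558) for Serping1 and 26.4 (19.1 to 37.4) for C1ra. Between these classes 5 of the 9 genes were at least 2-fold higher in fibroblast-like cells (17.7% of 11807 genes) and 3 of the 9 in macrophage-like cells (19.9%). Of the 5, C1s1 (955 and 10 UMIs) met the minimum of 20 UMIs through fibroblast-like cells alone. Its call in this count is therefore not read as support.

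Cfb had few UMIs, 172 in all kept cells of the PBS-labelled library. It stood at 20.6 CPM (16.8 to 25.1) in macrophage-like and 19.9 CPM (14.8 to 26.2) in fibroblast-like cells, so its highest class was not separated from the next (ratio of fibroblast-like to macrophage-like 0.966, 0.676 to 1.37). It was 12.1 CPM (4 UMIs) in endothelial-like and 0.160 CPM (7 UMIs) in keratinocyte-like cells. Under several other settings its highest class was fibroblast-like or endothelial-like.

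Within the endothelium of the PBS-labelled library the levels rested on few UMIs, above all on the blood side. Serping1 was 438 CPM (108 UMIs, 51 cells) in lymphatic endothelium-like and 142 CPM (12 UMIs, 30 cells) in blood endothelium-like cells, a ratio of 3.07 (1.69 to 6.14). In the sitagliptin-labelled library it had 2 UMIs on either side (78.0 and 72.2 CPM). C3 and the C1q chains had 2 to 4 UMIs each in the blood endothelium-like cells of the PBS-labelled library. Like Serping1, they reached the minimum of 20 UMIs through the lymphatic side alone. The ratios of all these genes, that of Serping1 included, are therefore not read as a difference between the sides. The macrophage markers summed to 815 CPM (median 36.5 CPM) in the lymphatic and 154 CPM (median 0 CPM) in the blood endothelium-like cells. The part of macrophage RNA in the C1q levels was not tested.

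Macrophage-like cells differed among themselves in how much C1q they carried. They formed 5 clusters, each called here by leading genes. The cluster led by Cd209f and Lyve1 (380 cells), genes of resident tissue macrophages, had 6856 CPM of C1qa, 4805 CPM of C1qb and 3582 CPM of C1qc. A smaller cluster led by Lyve1 and Ccl8 (69 cells) had 2324, 1611 and 1223 CPM. The cluster led by Ly6c2 and Chil3 (194 cells), genes of monocytes, had 1959, 1937 and 1014 CPM. The clusters led by Lyz1 and Retnla (209 cells) and by Lyz1 and Ear2 (74 cells) had 1327 and 1239 CPM of C1qa. The chains' shares differed too. C1qa made up 45.0% (44.4% to 45.6%) of C1q UMIs and C1qb 31.5% in the Cd209f and Lyve1 cluster, against 39.1% (37.6% to 40.7%) and 42.6% in the Lyz1 and Retnla cluster.

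The Ly6c2 and Chil3 cluster was lowest for C4b and highest for C3. C4b was 686 CPM (648 to 726) in the Cd209f and Lyve1 cluster, 252 CPM in the Lyve1 and Ccl8 cluster, 159 and 141 CPM in the Lyz1 clusters and 46.5 CPM (31.3 to 66.3) in the Ly6c2 and Chil3 cluster. C3 was 86.7 CPM (65.5 to 113) in the Ly6c2 and Chil3 cluster and 21.3 CPM (37 UMIs) in the Cd209f and Lyve1 cluster. Cfb was 38.6 CPM (29.9 to 49.1) in the Cd209f and Lyve1 cluster and 4.38 CPM (1.42 to 10.2) in the Lyz1 and Retnla cluster. Of the 7 genes with enough UMIs, 6 were at least 2-fold higher in the Cd209f and Lyve1 than in the Ly6c2 and Chil3 cluster (11.5% of 8476 genes), and C3 was the 1 at least 2-fold lower (7.74%). Against the Lyz1 and Retnla cluster all 7 were at least 2-fold higher (13.9% of 8911 genes). Some genes reached the minimum of summed UMIs only through the Cd209f and Lyve1 cluster. These were Cfb (67 and 10 UMIs) and C1ra (31 and 4) against the Ly6c2 and Chil3 cluster. Against the Lyz1 and Retnla cluster they were C3 (37 and 11 UMIs), Cfb (67 and 5) and C1ra (31 and 2). These ratios are therefore not read as a difference between the clusters. The C1q chains and C4b had enough UMIs on either side.

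**Figure D2:**
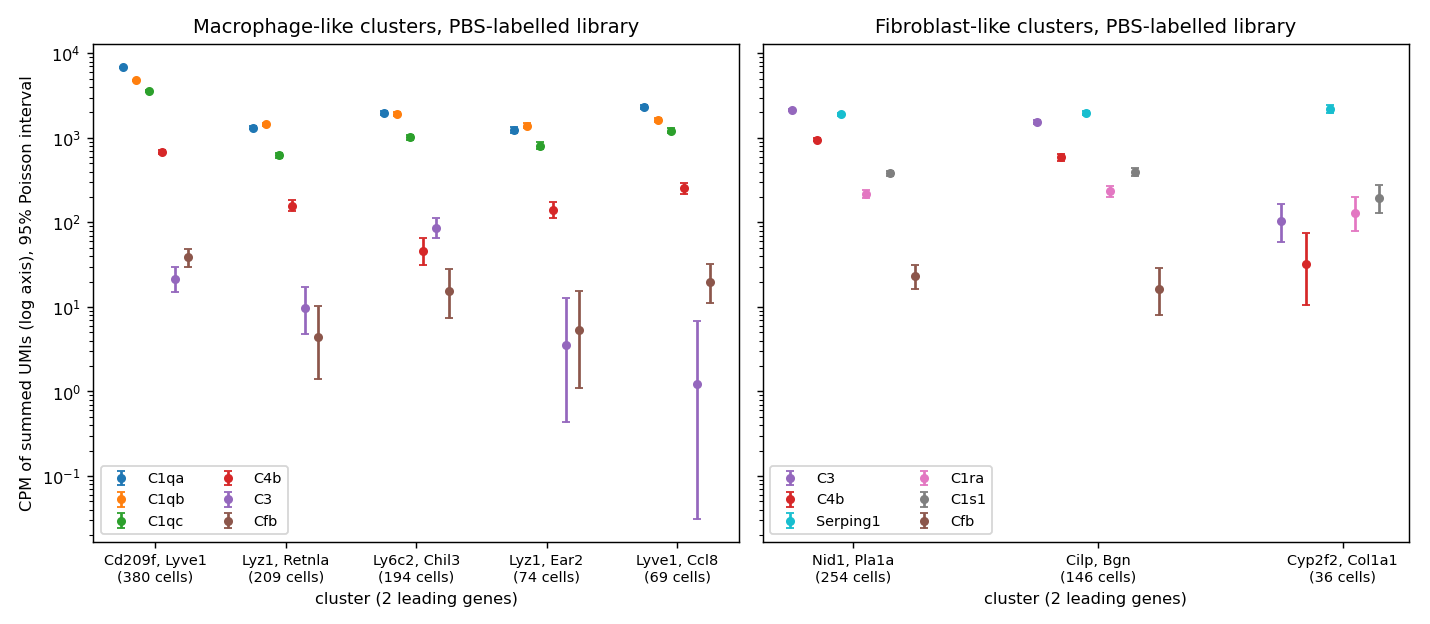
CPM of 6 complement genes (log axis, points with 95% Poisson intervals) in the macrophage-like clusters (left) and fibroblast-like clusters (right) of the PBS-labelled library, each named by its leading genes; genes at 0 are not drawn. C1qa runs from 1239 to 6856 CPM over the macrophage-like clusters, and C3 from 103 to 2149 CPM over the fibroblast-like clusters, in which Serping1 stays between 1896 and 2184 CPM.

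The 3 C1q chains were usually found together in a cell. All 3 were detected in 71.4% of macrophage-like cells, and in 57.0% after thinning to 1000 UMIs. After thinning, all 3 were found in 93.9% of cells of the Cd209f and Lyve1 cluster and 58.0% of the Lyve1 and Ccl8 cluster. The shares were 29.9%, 27.3% and 21.6% in the clusters led by Ly6c2 and Chil3, by Lyz1 and Retnla and by Lyz1 and Ear2. No chain was found in 42.3%, 36.4% and 48.6% of these cells. Among keratinocyte-like cells all 3 were found in 0.0257%, or 1 of 3884. The clusters thus differed in the share of cells with C1q at equal depth per cell, and not only in its mean level.

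**Figure D3:**
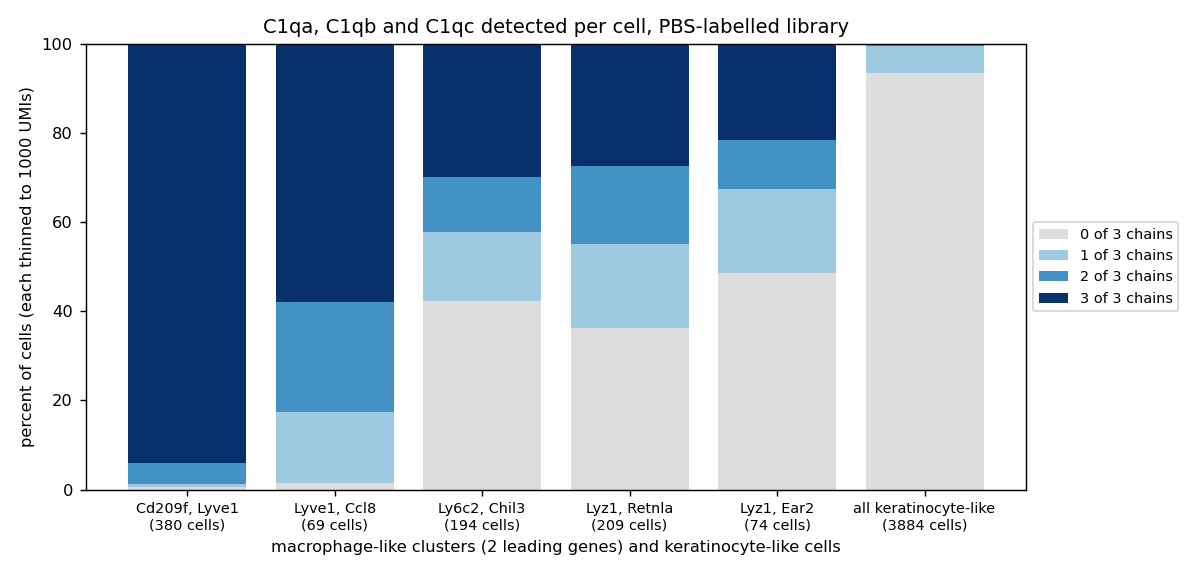
Percent of cells (vertical axis) with 0, 1, 2 or 3 of C1qa, C1qb and C1qc detected, in the 5 macrophage-like clusters and in all keratinocyte-like cells of the PBS-labelled library, each cell thinned to 1000 UMIs. All 3 chains are found in 93.9% of the Cd209f and Lyve1 cluster and in 21.6% of the Lyz1 and Ear2 cluster.

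Fibroblast-like cells differed in C3 and C4b and hardly in Serping1. C3 was 2149 CPM (2081 to 2220) in the cluster led by Nid1 and Pla1a (254 cells), 1550 CPM (1457 to 1646) in the cluster led by Cilp and Bgn (146 cells) and 103 CPM (58.7 to 167) in the cluster led by Cyp2f2 and Col1a1 (36 cells). C4b fell in the same order, at 954, 588 and 32.1 CPM. Serping1 was 1896, 1964 and 2184 CPM, with intervals of 1832 to 1962, 1859 to 2072 and 1958 to 2428. C1s1 was 380, 396 and 193 CPM and C1ra 216, 234 and 128 CPM. The Cyp2f2 and Col1a1 cluster thus carried the inhibitor at the level of the others and C3 at a far lower one.

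Outside these classes, C4b stood out in melanocyte-like cells, and C1q was highest in a small cluster of Langerhans-like cells. Melanocyte-like cells, led by the pigment genes Dct, Pmel and Tyrp1 (20 cells), had 240 CPM of C4b (148 to 366), in 14 of 20 cells. Their C3, C1ra, C1s1, Cfb and Serping1 were all at 0 UMIs, which allows up to 34.2 CPM each. In the sitagliptin-labelled library the 4 melanocyte-like cells had 1 C4b UMI. A cluster of 13 dendritic or Langerhans-like cells, led by Cd207 (langerin), had 1638 CPM of C1qa (1267 to 2084), 546 CPM of C1qb and 347 CPM of C1qc. C1qa made up 64.7% (54.6% to 73.9%) of its C1q UMIs, against 43.6% (43.1% to 44.1%) in macrophage-like cells. C1q was not particular to this cluster. C1qa was 318 CPM in 92 T cell or innate lymphoid-like cells and 207 CPM in 23 pericyte or smooth muscle-like cells. Nor was the share, which was 60.7% (47.3% to 72.9%) of 61 C1q UMIs in a T cell or innate lymphoid-like cluster led by Ccl5 and Cd69. An unnamed cluster led by Mfge8 and Cd207 (77 and 57 cells) had a C1qa share of 59.0% (50.3% to 67.3%) in the PBS-labelled and 64.9% (47.5% to 79.8%) in the sitagliptin-labelled library. Its C1qa level was 47.1 and 23.9 CPM. These clusters were singled out after their values were seen.

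Other genes varied across clusters much as the complement genes did. Pearson's r of log2(CPM + 1) was computed over 26 clusters of the PBS-labelled library for 7603 genes and describes this library only, since clusters share its cells and depth. Nearest to C1qa were Pf4 (0.966), F13a1 (0.952) and Folr2 (0.944), to C1qb F13a1 (0.978), and to C1qc F13a1 (0.976), Pf4 (0.974) and Mrc1 (0.973). Nearest to C3 was Tmem119 (0.932), to C1s1 Pcolce2 (0.953) and Col1a1 (0.951), to C1ra Twist1 (0.914), and to Serping1 Ndn (0.951). C4b had no gene above 0.875 (Calml4), and Cfb was nearest to Iigp1 (0.930). Among the 9 genes, r was 0.986 for C1qb with C1qc, 0.827 for C3 with Serping1, 0.612 for C4b with C1qa and 0.554 for C4b with C3.

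Further complement genes were taken from a list of 51, of which 49 were found by symbol. Of these, 15 reached 50 CPM in at least 1 class of the PBS-labelled library, 7 with the highest level in macrophage-like, 4 in fibroblast-like, 4 in endothelial-like and 0 in keratinocyte-like cells. The same split over all genes is not given, so these counts describe the list only. Properdin (Cfp), which stabilises the alternative convertase, was 991 CPM in macrophage-like cells, and the lectin Fcna was 335 CPM. Of the genes listed as receptors, Itgam (445 CPM), C3ar1 (286 CPM), C5ar1 (185 CPM) and Itgb2 (171 CPM) were highest in macrophage-like cells, whereas Lrp1 (690 CPM) and Calr (1264 CPM) were highest in fibroblast-like and Cd93 (199.5 CPM) in endothelial-like cells. C1qbp was about level, at 114 CPM in macrophage-like and 113 CPM in keratinocyte-like cells. Fibroblast-like cells had 88.6 CPM of C2, the partner of C4 in the convertase, and 208 CPM of Cd55, which dissolves convertases. Endothelial-like cells had 281 CPM of Clu, a regulator. No gene listed for the terminal pathway reached 50 CPM.

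The sitagliptin-labelled library held few of the cells that carry these RNAs. Its 18 macrophage-like cells had 2902 CPM of C1qa (2532 to 3311), 2364 CPM of C1qb and 1313 CPM of C1qc, against 3523, 2721 and 1843 CPM in the 926 cells of the PBS-labelled library. The ratios were 0.824 (0.718 to 0.941), 0.869 (0.746 to 1.01) and 0.713 (0.579 to 0.868), and 1.37 (0.959 to 1.91) for C4b. Different clusters held most of these cells, 9 of 18 in the Lyz1 and Retnla cluster and 4 in the Cd209f and Lyve1 cluster, against 209 and 380 of 926. Within these clusters C1qa was 1297 and 7346 CPM in the sitagliptin-labelled and 1327 and 6856 CPM in the PBS-labelled library, with overlapping intervals. The 5 fibroblast-like cells had 1188 CPM of C3 (37 UMIs, against 1867 CPM), 1188 CPM of Serping1 (37 UMIs, against 1931 CPM), 385 CPM of C1s1 (12 UMIs, against 373 CPM) and 160 CPM of C4b (5 UMIs, against 801 CPM). The 16 endothelial-like cells had 4 UMIs of Serping1, or 75.0 CPM, against 363 CPM. So few cells do not carry a comparison of the treatments.

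Keratinocyte-like cells were numerous in both libraries, and 7 of the 8 complement genes with at least 20 UMIs were at least 2-fold lower in the sitagliptin-labelled library. Of all 14665 genes tested, 3.06% were at least 2-fold lower and 3.35% at least 2-fold higher, and 0 of the 8 genes were higher. The median log2 ratio of the 8 genes was -2.29, against 0.00 for all genes. All levels were low in both libraries. C1qa was 20.3 CPM (889 UMIs) in the PBS-labelled and 1.05 CPM (86 UMIs) in the sitagliptin-labelled library, 19.4-fold lower (15.6 to 24.5). C1qb was 16.8 and 0.925 CPM, 18.2-fold lower, and C1qc 12.4 and 0.645 CPM, 19.2-fold lower. C4b was 4.14 and 0.560 CPM, 7.40-fold lower (5.33 to 10.5). The genes of the fibroblast set differed less. C3 was 2.88 and 0.888 CPM, 3.24-fold lower (2.41 to 4.39), C1ra 0.595 and 0.243 CPM, 2.44-fold lower (1.31 to 4.62), and Serping1 2.52 and 1.24 CPM, 2.03-fold lower (1.53 to 2.68). C1s1 was 1.17 and 0.864 CPM, a ratio of 0.741 whose interval held 1 (0.510 to 1.08). Cfb had 7 and 0 UMIs, too few to compare. Over the other settings tried, 5 to 7 genes were at least 2-fold lower and 0 higher.

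Most markers of macrophages and fibroblasts moved in the same direction in keratinocyte-like cells. Of the macrophage markers 13 of 14 were at least 2-fold lower in the sitagliptin-labelled library, with a median of 6.22-fold over the 14, and none was at 0 in either library. The summed level of the 14 differed little, at 302 CPM in the PBS-labelled and 270 CPM in the sitagliptin-labelled library. The median level was 4.60 and 0.487 CPM, so these sums rested on the higher markers of the list. Lyz2 was 19.1 and 1.41 CPM and Pf4 11.8 and 0.535 CPM, 13.5-fold and 22.0-fold lower. Of the fibroblast markers 9 of 10 were at least 2-fold lower, with a median of 3.20-fold, the exception being Fbln1 (ratio 1.27). Their summed level was 66.0 CPM and 39.5 CPM, and none was at 0. Among blood endothelium markers 1 of 9 and among keratinocyte markers 1 of 20 was at least 2-fold lower, and 1 of the 20 was at least 2-fold higher. Macrophage-like cells were 926 of 5932 kept cells in the PBS-labelled and 18 of 18380 in the sitagliptin-labelled library, and the median depth of keratinocyte-like cells was 8508.5 and 2189 UMIs. The part of each of these in the complement ratios was not tested.

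**Figure D4:**
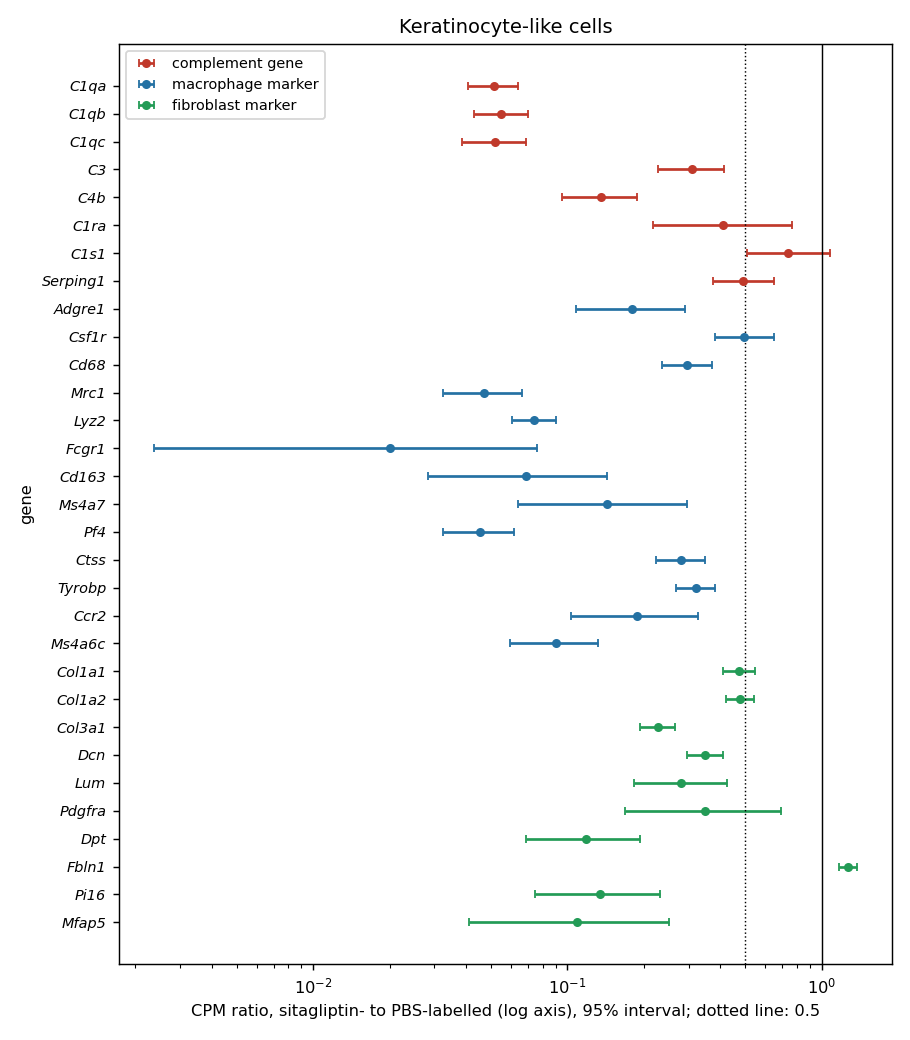
CPM ratio of the sitagliptin- to the PBS-labelled library in keratinocyte-like cells (log axis, points with 95% intervals) for the complement genes with at least 20 UMIs, the 13 macrophage markers that were at least 2-fold lower and 10 fibroblast markers; the dotted line is a ratio of 0.5 and the solid line 1. The C1q chains lie between 0.0515 and 0.0551, and C3, C1ra and Serping1 between 0.308 and 0.493; of the markers drawn, Fbln1 lies above 1.

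Keratinocyte-like clusters were not equally filled by the libraries. Those led by AY036118 and Gm42418 and by Malat1 and Lhx2 held 4135 and 3098 cells of the sitagliptin-labelled and 38 and 12 of the PBS-labelled library. Both were called keratinocyte-like by default. Each had 18 of the 20 keratinocyte markers detected in at least 10% of its cells. The mean log2 ratio of these markers to all other kept cells was 0.02 and -0.13. In the clusters led by Krt6b and Krt16 (886 and 1337 cells) and by Defb6 and Cst6 (734 and 1474 cells), the C1qa ratio was 0.0375 and 0.0335 and the C4b ratio 0.120 and 0.126. Serping1 ratios were 0.123 (0.0234 to 0.410) and 0.189 (0.0466 to 0.575) in these clusters, lower than the 0.493 of all keratinocyte-like cells together. With clusters weighted equally, the C3 ratio was 0.797 and the C1qa ratio 0.0136. With at most 5% mitochondrial UMIs the C1s1 ratio was 1.35, the Serping1 ratio 0.745, the C1ra ratio 0.176 and the C4b ratio 0.0720. The Serping1 ratio was above 0.5, so not 2-fold lower, under 7 of 13 other settings.

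Some complement RNA of keratinocyte-like cells was concentrated in single clusters, which were singled out after their values were seen. A cluster led by Krt24, Sfrp1 and Ctgf, with the hair follicle stem cell gene Lgr5 among its leading genes, held 936 of 17857 keratinocyte-like cells of the sitagliptin-labelled library and 27 of their 71 C1s1 UMIs, in 25 cells. C1s1 stood there at 9.19 CPM, 16.6-fold (9.86 to 27.3) above the other keratinocyte-like cells, C1ra at 2.38 CPM, 14.5-fold (4.91 to 39.2), and Serping1 at 6.47 CPM, 6.17-fold (3.54 to 10.3). Next came the cluster led by Ramp1 and Fgf18 for C1s1 (3.85 CPM) and that led by Malat1 and Lhx2 for Serping1 (3.66 CPM). Serping1 was spread more widely, and the Krt24 cluster held 19 of its 102 UMIs. The same cluster in the PBS-labelled library (140 cells) had 18.5 CPM of C1s1, 20.5-fold (9.76 to 39.9) above the rest, 6.18 CPM of C1ra, 12.1-fold (3.03 to 35.6), and 12.4 CPM of Serping1, 5.22-fold (2.19 to 10.7). C3 had 0 UMIs there in the sitagliptin-labelled (up to 1.02 CPM allowed) and 1 in the PBS-labelled library, and the C1q chains together 2 and 53 UMIs. Both C1 proteases and their inhibitor were thus higher in this cluster than in the other keratinocyte-like cells of each library, on few UMIs. C1ra rested on 7 UMIs in the sitagliptin-labelled and 4 in the PBS-labelled library. In the PBS-labelled library C1s1 had 12 UMIs and Serping1 8 in this cluster. The Krt24 cluster was not the highest for Serping1 in the PBS-labelled library. There, 13 cells led by Rnase2b, Serpinb6e and Awat1, with a median of 27569 UMIs and none in the other library, had 55.0 CPM (17 UMIs).

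C3 of the sitagliptin-labelled library was highest in another cluster. Cells led by Fa2h, Soat1, Cidea and Scd1, genes of lipid synthesis and storage, numbered 111 in the sitagliptin-labelled library and held 21 of 73 C3 UMIs, in 16 cells. C3 stood there at 27.9 CPM (17.3 to 42.7), 43.7-fold (25.0 to 73.9) above the other keratinocyte-like cells. Next came a cluster with some of the same leading genes (Cidea and Fa2h), led by Scd3 and Hbb-bs, at 3.84 CPM. In the PBS-labelled library the 65 cells of the Fa2h and Soat1 cluster had 13.7 CPM (7.05 to 23.8), 12 UMIs in 9 cells. This was 5.13-fold (2.58 to 9.32) above the others. The 13 cells led by Rnase2b held as many C3 UMIs, 12, at 38.8 CPM (20.1 to 67.8), along with 230 CPM of C1qa. Serping1 and C1ra had 0 UMIs in the Fa2h and Soat1 cluster in both libraries (up to 3.99 CPM allowed in the sitagliptin-labelled and 3.41 CPM in the PBS-labelled one). The C1q chains had 0 UMIs there in the sitagliptin-labelled and 50 in the PBS-labelled library. C3 was detected in 14.4% of these cells (median 5366 UMIs) in the sitagliptin-labelled library, against 0.375% of all keratinocyte-like cells (median 2189 UMIs). After thinning the shares were 4.50% and 0.168%.

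**Figure D5:**
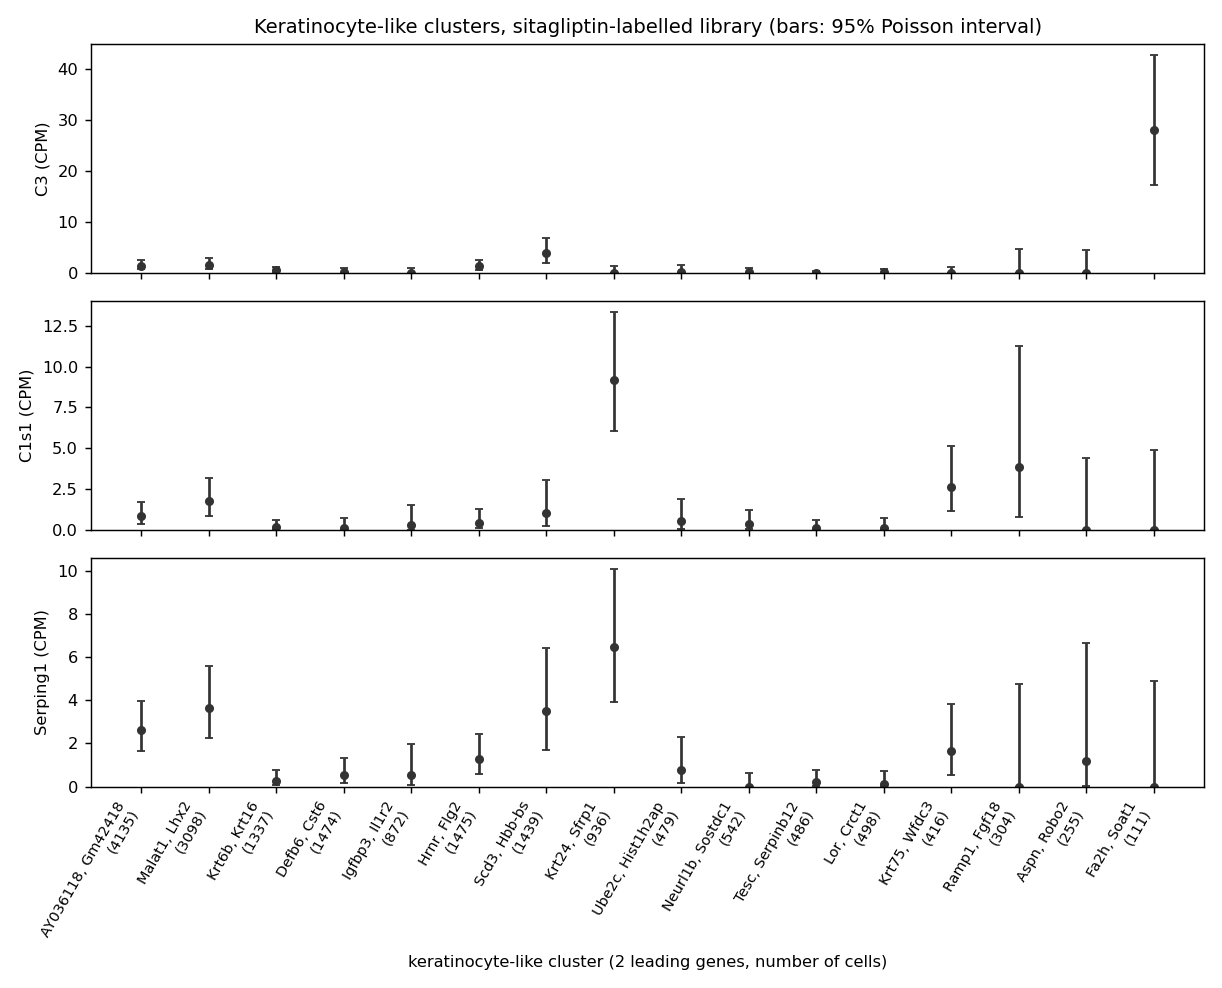
CPM of C3, C1s1 and Serping1 (3 panels, points with 95% Poisson intervals) in each keratinocyte-like cluster of the sitagliptin-labelled library, named by leading genes with the number of cells. C3 stands at 27.9 CPM in the cluster led by Fa2h and Soat1, and C1s1 at 9.19 CPM and Serping1 at 6.47 CPM in the cluster led by Krt24 and Sfrp1.

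The listed complement genes were compared in keratinocyte-like cells as well. Of 21 with at least 20 UMIs, 6 were at least 2-fold lower in the sitagliptin-labelled library and 1, Itgax, was higher, with a median log2 ratio of -0.04, against 3.06% lower and 3.35% higher of all genes tested. Of the 6, 5 were genes highest in macrophage-like cells, namely Fcna, C5ar1, C3ar1, Cfp and Itgb2, with ratios of 0.0351, 0.0380, 0.174, 0.193 and 0.365. The regulators Cd55 and Clu did not differ by 2-fold. Cd55 was 42.4 CPM in the PBS-labelled library with a ratio of 1.13, and Clu was 67.3 CPM with a ratio of 1.30.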

How the data were processed

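The authors deposited a matrix of UMI counts per gene and cell barcode for each 10x library, made with Cell Ranger 3.1.0 on mm10 per the submitters' processing notes; the values were used as deposited, with no normalization before them. Kept cells (at least 500 genes, at least 1000 UMIs, at most 10% mitochondrial UMIs) of both libraries were clustered together with scanpy 1.11.5 and leidenalg 0.10.2 (10000 counts per cell, 2000 variable genes without the 9 complement genes, 30 components, 15 neighbours, resolution 1, seed 1). Cells of clusters that carried markers of a class other than keratinocytes were clustered again, a step added after seeing the data. Clusters were named from marker lists. Those in which no other list stood out were called keratinocyte-like by default, with no minimum for keratinocyte markers. Only clusters of the second round could stay unnamed, which 5.98% and 1.62% of cells in the PBS- and sitagliptin-labelled library did. Scrublet called 2 of 5932 and 0 of 18380 cells doublets, so it had not worked; doublets were kept, and leaving out the 8% highest scores was an alternative.

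Counts were summed per class and library and given as CPM with exact Poisson intervals; ratios have exact conditional binomial intervals and shares exact Clopper-Pearson intervals, all at 95%. A count of 0 is given with the limit that 3 counts set. Ratios needed 20 summed UMIs over both sides, and 2-fold was the size called. The ratio calculation was tested on simulated data. With 1 library per treatment no test was made. The 9 genes were named in every class, other complement genes where they reached 50 CPM in a class or differed 2-fold in keratinocyte-like cells, and for each complement gene the genes nearest in pattern. The genes and lists were chosen with earlier results of these data known. Other cell filters, clusterings, scalings, thinning and fold sizes were tried as alternatives. SciPy 1.17.1, NumPy 2.4.6 and pandas 2.3.3 were used in Python 3.11.15. Values of a few genes on these lists are not reported here.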

Additional observations from a re-analysis of the deposited data

How the results depend on the processing

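C1qa, C1qb and C1qc were highest in macrophage-like and C3, C4b, C1ra, C1s1 and Serping1 in fibroblast-like cells of the PBS-labelled library under each of the 12 alternatives that could change it, and the class of Cfb changed under 6 of them. Of the 9 genes, 5 to 7 were at least 2-fold lower and 0 at least 2-fold higher in keratinocyte-like cells of the sitagliptin-labelled library under the alternatives tried. The C1s1 ratio turned to 1.35 with at most 5% mitochondrial UMIs and to 1.13 with cells thinned to 1000 UMIs; the cause was not tested. The second round of clustering and leaving out a keratinocyte-like cluster of 13 PBS-labelled cells were chosen after seeing the data. No paired analysis was possible because each treatment had 1 library. Few macrophage-like, fibroblast-like and endothelial-like cells of the sitagliptin-labelled library limit its levels there, and low UMI counts limit those of keratinocyte-like cells.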
